A study of Mus musculus with 2 samples.

Results

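The genes described here are the mouse genes for the proteins of the cytoplasmic ribosome, taken as the multi-exon protein-coding genes of chromosomes 1 to 19 in GENCODE M1 (mm9) whose symbol is Rpl or Rps with a number and at most 1 further letter, together with Rplp0, Rplp1, Rplp2 and Rpsa. Pseudogene symbols were left out. The rule gave 75 genes, 44 for the large subunit and 31 for the small subunit, of 18685 multi-exon protein-coding genes on these chromosomes. Rpl10, Rpl36a, Rpl39 and Rps4x lie on chromosome X and Rpl10l has 1 exon, so they fell outside it. The symbols alone chose the genes, and no tag count or peak entered the rule. The choice also took in the paralogues Rpl3l, Rpl39l and Rps27l, each encoded by a gene of its own beside Rpl3, Rpl39 and Rps27.

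The study mapped the zinc finger protein CTCF in R1/E mouse embryonic stem cells, cultured on gelatin with LIF, that carried a bacterial artificial chromosome with the CTCF gene and a C-terminal GFP-containing LAP tag. The transgene was stably integrated, and GFP-positive cells had been sorted. Both libraries came from this line, after crosslinking at 1% formaldehyde and shearing to fragments of about 500 bp, with 1 library precipitated by a goat antibody to GFP and 1 by a goat IgG isotype control. There was no replicate of either library, and the control also carries the words input DNA in its label. It was read here as the IgG precipitate. The CTCF library held 8391191 tags and the IgG library 7988889 tags of 35 bp. At this depth the median ribosomal protein gene start had 12 CTCF and 5 IgG tags within 1 kb. Intervals are at 95% and cover counting error only, and each test compares these 2 libraries rather than 2 conditions.

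Ribosomal proteins are made in nearly fixed proportion to the ribosomal RNAs, and in growing cells such as embryonic stem cells they are among the most abundantly transcribed products of RNA polymerase II. Their genes are scattered over the chromosomes, are short, often carry small nucleolar RNAs (snoRNAs, which guide the modification of ribosomal RNA) in their introns, and start with a tract of pyrimidines, the 5′ terminal oligopyrimidine (TOP) tract, through which translation of the mRNA responds to growth signals. CTCF binds a long GC-rich motif with its zinc fingers, often together with cohesin, at boundaries of chromosome domains and at some promoters. In humans, loss of one copy of several ribosomal protein genes causes Diamond-Blackfan anemia, a failure of red cell production.

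The promoter of Rplp0 is shown first, because it had a CTCF peak at the start and a CTCF motif within the promoter itself. Rplp0 encodes the base of the ribosomal stalk, to which the translation factors bind. The 250 bases before the annotated gene start, at chr5:116009226-116009475 (mm9, plus strand), are shown on the strand of the gene, with the letters that matched the CTCF matrix in capitals. The match lies from 180 to 162 bases before the start and reads in the direction of transcription.
Rplp0: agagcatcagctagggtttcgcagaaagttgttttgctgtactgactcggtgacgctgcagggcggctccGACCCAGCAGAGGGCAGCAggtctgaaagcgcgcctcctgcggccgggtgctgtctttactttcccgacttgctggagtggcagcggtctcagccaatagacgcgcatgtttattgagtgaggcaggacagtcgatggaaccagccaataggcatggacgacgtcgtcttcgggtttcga

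Of the 75 genes, 50 had a deposited CTCF peak overlapping the 5 kb on either side of the start, a share of 66.7% (Wilson interval 55.4 to 76.3). The background over all 18685 genes was 28.3%. Within 1 kb the share was 36.0% (26.1 to 47.3), 27 of the 75 genes, where the background was 11.2%. A further 23 genes had a peak only between 1 and 5 kb. Counted by summit, 47 genes (62.7%) had a summit within 5 kb, where 26.7% of all genes did. In all, 75 peaks overlapped the 5 kb on either side of a member start, and 19 genes had 2 or more of them. The share of all genes with 2 or more was not computed. The large subunit genes had a peak within 5 kb at 31 of 44 starts and the small subunit genes at 19 of 31. The distance from the start to the nearest summit had a median of 3533 bp (quartiles 491 and 7193 bp), and over all genes it was 13045 bp (4557 and 33993 bp). Only 3 members, Rpl39l (38695 bp), Rps7 (46693 bp) and Rps9 (28971 bp), had no summit within 25 kb, which is 4% of the members where it is 32.3% of all genes.

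The tag counts gave a similar picture, although they come from the same libraries as the peaks and so restate them in part. The 75 windows of 1 kb on either side of the start held 1214 CTCF and 369 IgG tags. After scaling to the same depth this was a ratio of 3.13 (exact interval 2.79 to 3.53), where all genes together had 1.78 (1.76 to 1.79). Among the 58 members with at least 10 tags the median ratio was 2.76, beside 1.67 over the 13009 genes with as many tags. A ratio of at least 2 was found at 37 of the 58, or 63.8%, where the background was 41.5%. In an exact binomial test with Benjamini-Hochberg adjustment over the 13009 genes, 26 of the 58 had more CTCF tags at an adjusted p under 0.05, or 44.8%, where the background was 17.7%. None of the 58 had fewer CTCF tags in that test, and the background for that direction was 0.307%. Without adjustment 28 of the 58 passed p 0.05, or 48.3%, where the background was 26.7%. Of the 26 genes called, 24 had a deposited peak within 1 kb, and the exceptions were Rps10 and Rpl37. Counting every member, also those below 10 tags, 60 had more CTCF than IgG tags after scaling, or 80%, where the background was 65.2%, and 15 had fewer. The interval of the ratio lay above 1 for 29, or 38.7%, where the background was 18%, and below 1 for 0.

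**Figure D1:**
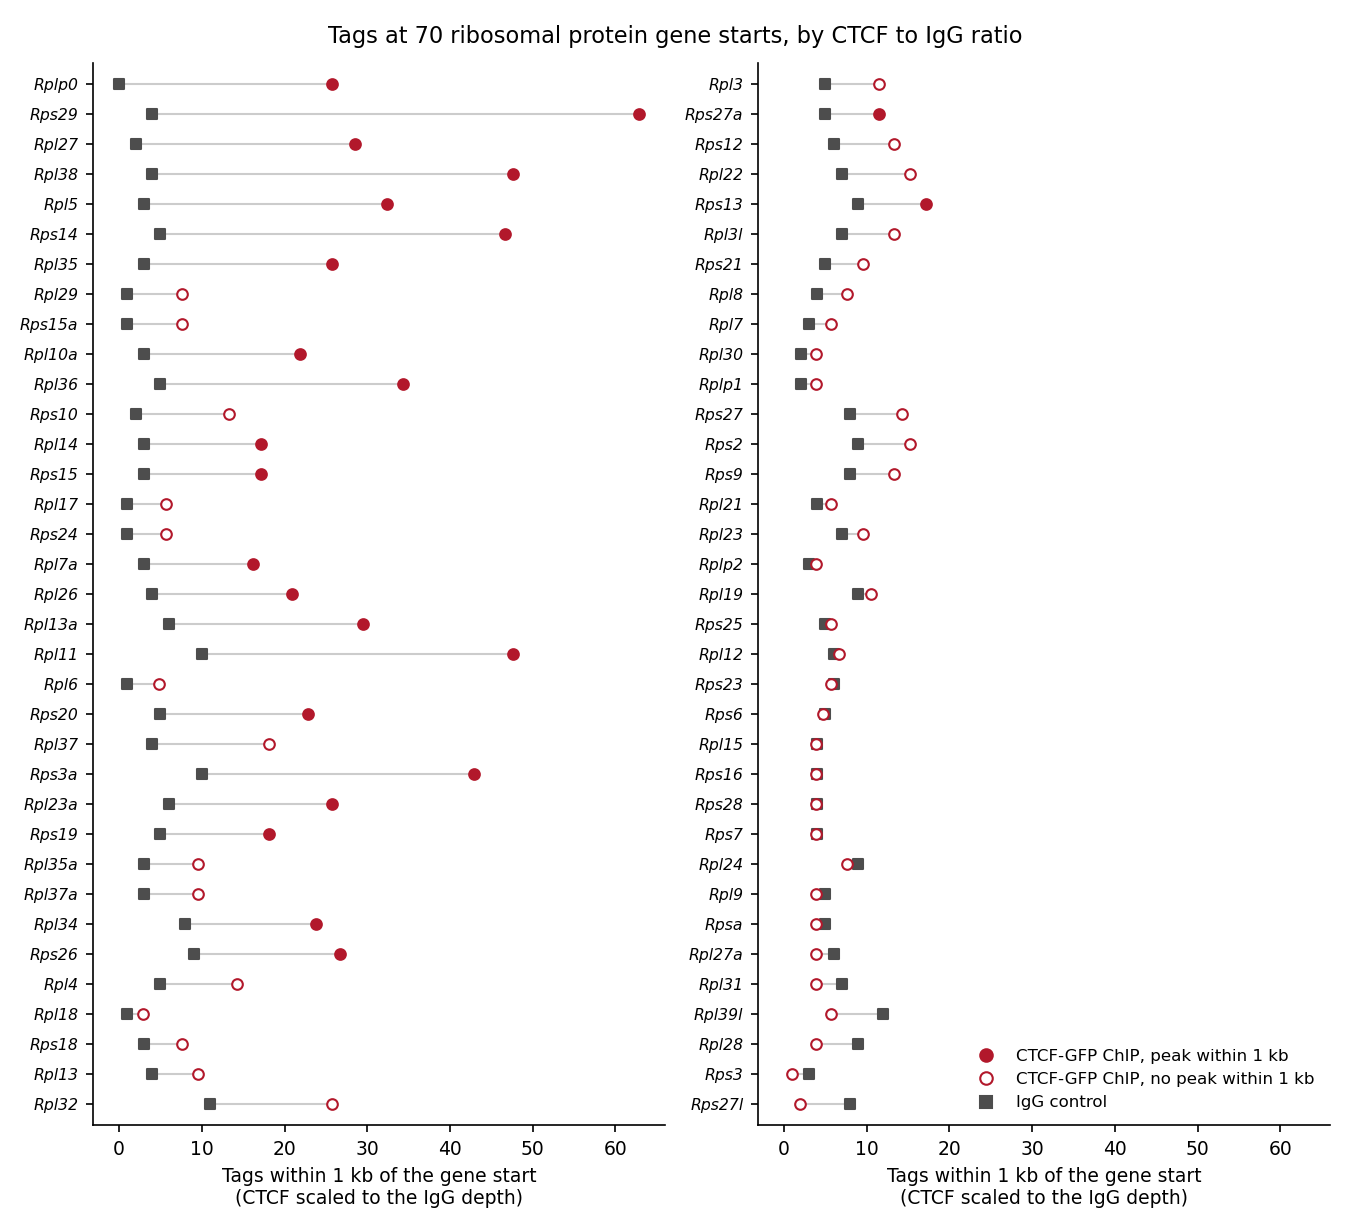
Tags within 1 kb of the start of 70 of the 75 ribosomal protein genes, with the CTCF-GFP library scaled to the depth of the IgG library (red circles, filled where a deposited peak lies within 1 kb) and the IgG control (dark squares), ordered by their ratio over the left and then the right panel. The filled circles gather at the top, where Rps29 has the highest CTCF count, while most of the right panel shows both libraries at similar counts.

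The members without a peak in the 1 kb window were also above the control as a group. The 48 of them held 397 CTCF and 238 IgG tags together, a ratio of 1.59 (exact interval 1.35 to 1.87), and all genes without such a peak had 1.35 (1.34 to 1.36). Of the 31 of these members with at least 10 tags, 11 reached a ratio of 2, or 35.5%, where the background over all genes without such a peak was 31.6%.

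The highest CTCF count belonged to Rps29, which encodes a small zinc-binding protein of the small subunit and whose gene has 3 exons (chr12:70258709-70260173, minus strand). Its window held 66 CTCF and 4 IgG tags, a ratio of 15.7 (exact interval 5.85 to 59.4; exact binomial test with Benjamini-Hochberg adjustment, adjusted p = 6.36e-12). The peak there had a score of 523.19, on the scale of the MACS program, where a larger score stands for a smaller p-value, and its summit lay 556 bp upstream of the start.

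Rplp0 had 27 CTCF tags and 0 IgG tags. Set against a floor of 3 tags in the IgG library the ratio was 8.57. The counts of 27 and 0 tags themselves, without the floor, gave an exact lower limit of 6.50 and no upper limit. Rpl27, of the large subunit, had 30 CTCF and 2 IgG tags, a ratio of 14.3 (exact interval 3.62 to 123), and its summit lay 129 bp upstream. Rpl38, a large subunit protein known for its part in the translation of Hox mRNAs in the mouse embryo, had 50 and 4 tags and a ratio of 11.9 (4.37 to 45.4). The 5 kb on either side of its start overlapped 3 peaks, with summits 5395 and 554 bp upstream and 4293 bp downstream of the start. Rpl5, a large subunit protein that binds the smallest ribosomal RNA, had 34 CTCF and 3 IgG tags, a ratio of 10.8 (3.39 to 54.9), and its summit lay 52 bp upstream, 21 bp from the centre of a CTCF motif. The wide intervals of these genes come from IgG counts of 0 to 4, so their order among each other is not resolved.

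A further 10 large subunit genes with a peak within 1 kb had between 17 and 50 CTCF tags. Rpl11, which acts with Rpl5 in the particle that holds Mdm2 in check under ribosomal stress, had 50 CTCF and 10 IgG tags (ratio 4.76). Rpl36 had 36 and 5 tags (6.85), with 2 peaks in the window, and Rpl13a had 31 and 6 (4.92). Rpl35 had 27 and 3 tags, a ratio of 8.57 (2.64 to 44.1). Rpl23a, whose product sits with that of Rpl35 at the exit of the peptide tunnel, had 27 and 6 (4.28). Rpl10a had 23 and 3 tags (7.30, interval 2.21 to 38.0), Rpl26 had 22 and 4 (5.24) and Rpl34 had 25 and 8 (2.98). Rpl14 had 18 and 3 tags (5.71, interval 1.67 to 30.3), and Rpl7a had 17 and 3 (5.39, interval 1.56 to 28.7). All of these passed the exact binomial test with Benjamini-Hochberg adjustment, with the largest adjusted p = 0.0307 at Rpl34. The peak counted for Rpl7a had its summit 1157 bp upstream, in an intron of the neighbouring gene Med22. The summit counted for Rpl13a, 101 bp upstream of its gene start, lay 86 bp from the start of another gene, Flt3l.

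On the small subunit side, Rps14, whose loss on one allele marks a human myelodysplastic syndrome, had 49 CTCF and 5 IgG tags and a ratio of 9.33 (exact interval 3.74 to 30.0). Rps3a had 45 and 10 tags (ratio 4.28), Rps26 had 28 and 9 (2.96) and Rps20 had 24 and 5 (4.57). Rps19, the gene most often mutated in Diamond-Blackfan anemia, had 19 and 5 tags (3.62), and Rps15 had 18 and 3 (5.71, interval 1.67 to 30.3). These 6 genes were called higher, with the largest value at Rps19 (exact binomial test with Benjamini-Hochberg adjustment, adjusted p = 0.0412). Rps13, with 18 and 9 tags (adjusted p = 0.346 in the exact binomial test), and Rps27a, whose product is made as a fusion with ubiquitin, with 12 and 5 (adjusted p = 0.379 in the exact binomial test), had a peak and did not pass the test. The peak of Rps13 had a score of 53.54, close to 50, the lowest score in the deposited list.

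Not every gene of the disease group carried a peak at its start. Among the Diamond-Blackfan anemia genes of the naming rule, which is only a part of those known, Rpl5, Rpl11, Rps19 and Rps26 had one within 1 kb. Rps10 had 14 CTCF and 2 IgG tags (ratio 6.66, exact interval 1.53 to 60.4; exact binomial test with Benjamini-Hochberg adjustment, adjusted p = 0.0281) and its peak, of score 278.89, had its summit 2278 bp upstream. Rps24 had 6 and 1 tags, with a summit 3533 bp upstream, close to the start of Polr3a. Rpl35a had 10 and 3 tags (ratio 3.17, interval 0.817 to 17.9) with the nearest summit at 14758 bp. Rps7 had 4 tags in each library, and it was the member farthest from a summit. The 3 stalk proteins differed in the same way, with the peak at Rplp0 and without one at Rplp1 (4 and 2 tags) and Rplp2 (4 and 3 tags), whose nearest summits were 3964 bp downstream and 3736 bp upstream.

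The lowest ratios among members with at least 10 tags were found at genes with 2 to 6 CTCF tags. Rps27l had 2 CTCF and 8 IgG tags, a ratio of 0.238 (exact interval 0.0246 to 1.19). Rpl28 followed with 4 and 9 tags (0.423, interval 0.0952 to 1.52), Rpl39l with 6 and 12 (0.476, interval 0.147 to 1.37), Rpl31 with 4 and 7 (0.544, interval 0.117 to 2.14) and Rpl27a with 4 and 6 (0.635, interval 0.132 to 2.68). All 5 intervals include 1, so a depletion of CTCF was not detectable at these starts. Of the paralogues, Rps27l and Rpl39l thus stood at the low end and Rpl3l, expressed mainly in skeletal muscle and heart, had 14 and 7 tags (ratio 1.90, interval 0.719 to 5.57). None of the 3 had a peak within 1 kb. The highest IgG counts were 12 at Rpl39l, 11 at Rpl32 and 10 at Rpl11 and Rps3a. Rpl32, with 27 CTCF tags beside its 11 IgG tags, had a ratio of 2.34 (1.12 to 5.22) and did not pass the adjusted test (exact binomial test with Benjamini-Hochberg adjustment, adjusted p = 0.0733).

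Rpl19 is of special use because the study took it as the reference locus for its ChIP-qPCR. Its start had 11 CTCF and 9 IgG tags, a ratio of 1.16 (exact interval 0.438 to 3.18), and no peak within 1 kb. A peak with a score of 175.72 was present at chr11:97891831-97893007, downstream of the gene, with its summit 4330 bp from the start and 46 CTCF and 7 IgG tags inside it. The primer pair listed for this locus matched both ends of a stretch of 1407 bp, chr11:97889756-97891162, with each primer in an exon of Rpl19. That stretch held 9 CTCF tags and 1 IgG tag, and the middle of it was 1895 bp from the nearest summit. Since the primers lie in separate exons, they may have been designed for the mRNA, and whether this stretch was the product measured is not known. The primers are shown because they give the position.
forward primer: gacggaagggcaggcatatg
reverse primer: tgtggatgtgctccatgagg

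Around the starts, CTCF tags were concentrated on the upstream side. In the 500 bp before the start the members together had 564 CTCF and 125 IgG tags, a ratio of 4.30 (exact interval 3.53 to 5.26), and all genes had 2.14 (2.11 to 2.17). From 1000 to 500 bp upstream the ratio was 3.18 (2.57 to 3.94). In the 500 bp after the start there were 109 CTCF and 51 IgG tags, so that both libraries fell below the genome mean there, CTCF to 0.853 and IgG to 0.421 times, and their ratio was 2.03 (1.45 to 2.90). All genes had 1.01 and 0.583 times the genome mean in the same stretch. Farther out, between 2 and 5 kb downstream, CTCF stood at 2.17 times the genome mean at members and at 1.33 times over all genes. Over the full 2 kb window the IgG density at members was 0.761 times the genome mean (0.685 to 0.843), beside 0.796 for all genes. In the 500 bp before the start alone, the IgG library was at 1.03 times the genome mean at members and at 0.784 times over all genes, so the control was higher there too, by less than CTCF, which was at 4.41 and 1.67 times.

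**Figure D2:**
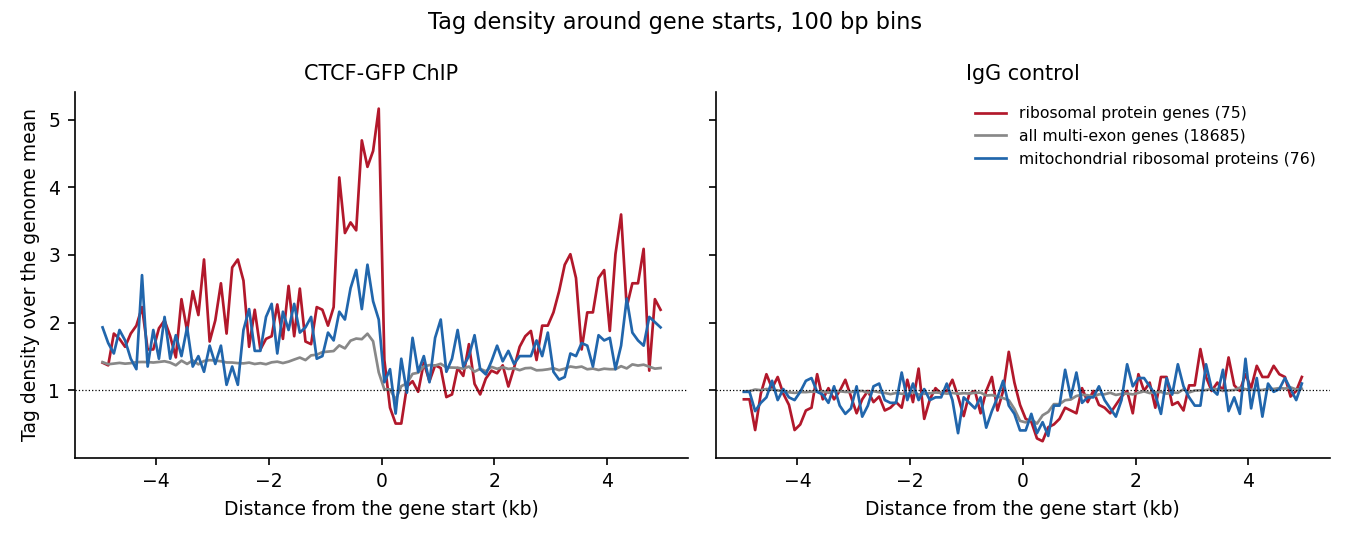
Tag density in bins of 100 bp, relative to the mean of the genome (dotted line at 1), against the distance from the gene start in kb, for the CTCF-GFP library on the left and the IgG control on the right. The ribosomal protein genes (red) rise above 4 times the mean just upstream of the start in the CTCF library and fall below 1 after it, while all genes (grey) and the mitochondrial ribosomal protein genes (blue) stay lower upstream and the IgG library at the ribosomal protein genes reaches 1.57 times in a single bin upstream.

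The summits placed the peaks on the same side. Of the 26 summits within 1 kb of a member start, 24 were upstream, a share of 92.3% (Wilson interval 75.9 to 97.9), and of the 1684 gene and summit pairs over all genes 74.3% were upstream (72.1 to 76.3). The median position was 191.5 bp upstream at members and 207 bp upstream over all genes. In the last 250 bp before the start lay 12 of the 26, and 486 of the 1684 pairs over all genes. The exceptions were the summits at 426 bp in Rpl23a and at 897 bp in Rpl34, both in an intron of the gene. The 46 peaks that overlapped only the range of 1 to 5 kb were divided between the sides, with 24 upstream and 22 downstream. Of these, 29 had the summit between genes, 11 in another protein-coding gene and 6 in the member itself. The peak with the highest score of all 75, 633.52, lay 5879 bp downstream of the start of Rpl37a and held 98 CTCF and 7 IgG tags, and the one at Rpl13, with a score of 443.77, lay 4431 bp downstream of its start. Neither gene had a peak within 1 kb, where Rpl37a had 10 CTCF and 3 IgG tags and Rpl13 had 10 and 4.

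**Figure D3:**
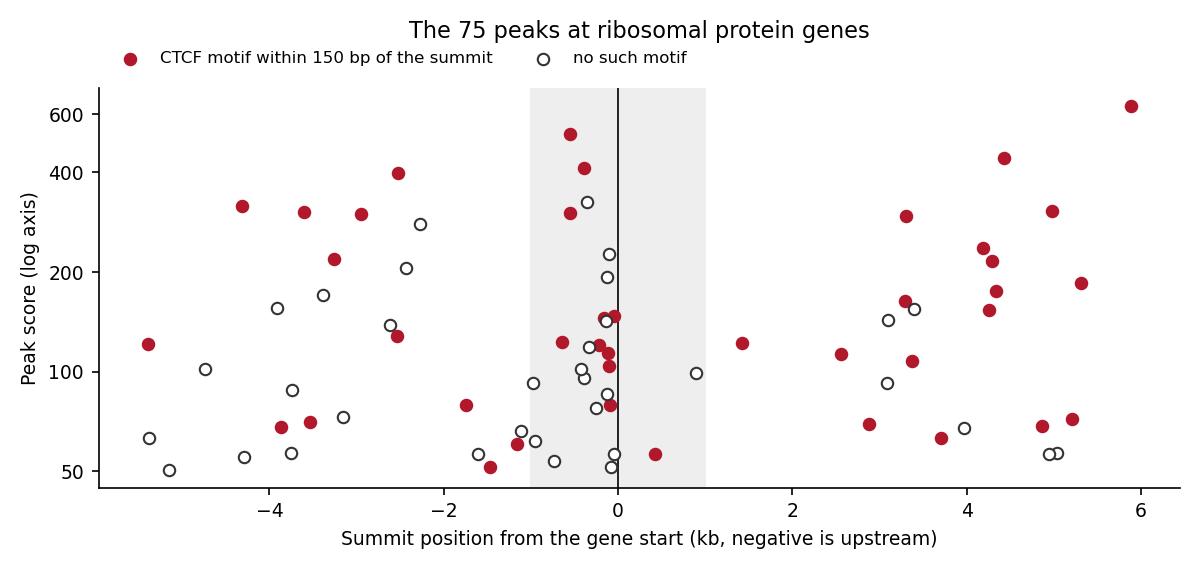
Score of each of the 75 peaks overlapping 5 kb of a ribosomal protein gene start (log axis) against the position of its summit from that start in kb, with negative values upstream and the 1 kb on either side shaded. Filled points have a CTCF motif within 150 bp of the summit, and the shaded range holds nearly all of its points on the upstream side.

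A CTCF motif at a match p of 1e-05 was found within 150 bp of the summit at 40 of the 75 member peaks, or 53.3% (Wilson interval 42.2 to 64.2). All 33756 summits on the assembled chromosomes had one in 74.0% (73.5 to 74.5), and the 1609 summits within 1 kb of any multi-exon coding gene start in 56.7% (54.2 to 59.1). The 29 member peaks overlapping 1 kb had a motif in 13 cases, 44.8% (28.4 to 62.5), and the 46 at 1 to 5 kb in 27 cases, 58.7% (44.3 to 71.7). The share over the 75 member peaks was thus below that of all summits. For the 29 peaks overlapping 1 kb, the wide interval lay below 74.0% and included 56.7%. The interval of the 46 peaks at 1 to 5 kb also lay below 74.0%. The share of all summits at that distance from a gene start was not computed. The member peaks had a median score of 113.54, beside 116.96 for all. Under summits within 1 kb of a start, 8 motifs read in the direction of transcription and 3 against it at members, and 544 read with and 404 against it over all genes. The strong peak of Rps14 had no motif by this threshold, and that of Rpl27 had none either.

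The motifs near 5 annotated gene starts show how far the sites under these peaks vary. The Rpl13a site is under a peak whose summit lay 86 bp from the start of another gene, Flt3l. The median start of the coding transcripts of Rpl13a was 7669 bp from its gene start. Each line gives the motif in capitals with 5 bases on either side in lower case, on the strand on which the motif reads.
Rpl5 (chr5:108329476-108329504, plus): tcctcCTACCGGCAGGGGGCGATAgcccg
Rplp0 (chr5:116009291-116009319, plus): gctccGACCCAGCAGAGGGCAGCAggtct
Rpl36 (chr17:56752743-56752771, plus): acctcCGGCCACCAGAGGTCGCCCgcagc
Rpl13a (chr7:52391857-52391885, minus): acttgTTACCACTAGGTGGCGTGTcccgc
Rps29 (chr12:70260722-70260750, minus): atttcACGCCAGTAGGTGTCAGTAgtgag
No 2 of the 5 motifs are the same. Their match p ranged from 9.68e-08 at Rpl36 to 3.57e-06 at Rpl13a.

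The same letters recurred inside several of the motifs, near the starts and farther out. The letters AGAAGAGGG stood inside the motif at 10 of the 27 motif-bearing peaks at 1 to 5 kb, 37.0% (Wilson interval 21.5 to 55.8), and at 3 of the 13 within 1 kb, among them those of Rpl7a and Rpl38. The share within 1 kb was 23.1% (8.18 to 50.3), and the intervals overlap, so the distances are not told apart. Over all 24984 motif-bearing summits the share was 19.8% (19.3 to 20.3), and over the 912 within 1 kb of a gene start it was 12.3% (10.3 to 14.6). These letters were picked after the sequences had been read, so the shares are a description. The word is part of the rodent B2 short interspersed element, a repeat known to have spread CTCF motifs through rodent genomes, but repeats were not annotated here. The sites at Rpl28 and Rpl8, on different chromosomes, are shown because all 29 letters are the same, and the one at Rpl19 because it belongs to the peak next to the reference locus.
Rpl28 (chr7:4747776-4747804, minus): cctgtGTGCCAGAAGAGGGCATCAgatcc
Rpl8 (chr15:76738716-76738744, minus): cctgtGTGCCAGAAGAGGGCATCAgatcc
Rpl19 (chr11:97892191-97892219, plus): catttACACCAGAAGAGGGCATCCaattt

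The sequence of the starts themselves was compared with that of all multi-exon genes. Ribosomal protein starts had a median GC content of 56.9% within 500 bp, near the 56.1% of all genes, and a higher CpG content, with an observed over expected ratio of 0.814 against 0.608. The ETS family word CCGGAAG stood between 250 bases before and 50 bases after the start, on either strand, in 24 of 75 members, 32.0%, and in 12.1% of all genes. The YY1 word AAGATGGC, which can share its first 3 letters with the end of the ETS word, stood there in 5 members, 6.67%, and in 3.26% of all genes. TATAA between 40 and 20 bases before the start, on the strand of the gene, was found in 3 members, 4%, and in 3.71% of all genes. Among the 27 members with a peak within 1 kb the ETS word was present in 7, and among the 48 without one in 17. These traits were not particular to the members. In the other lists described below, the ETS word stood in 35.5% of mitochondrial ribosomal protein genes and 36.8% of ribosome biogenesis genes. It stood in 29.4% of translation factors and of proteasome subunits, and in 15% of other TOP genes. The YY1 word ranged from 5.26% to 25% over these lists, and the median CpG ratio from 0.722 to 0.857.

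The annotated starts rarely showed the TOP tract. The first base was C in 21 of 75 members (28%) and in 16.1% of all genes, and a C with at least 4 pyrimidines in a row from it was present in 4 members, 5.33%, and in 3.23% of all genes. With the median start of the coding transcripts in place of the gene start, 8 members (10.7%) had such a tract. The share of all genes at their coding starts was not computed, so this value has no background beside it. Gene starts in this annotation are the most upstream base of any transcript and may lie some bases off the base at which most mRNAs begin. Where the tract could begin anywhere within 10 bases of the gene start, 35 members (46.7%) had one and 47.6% of all genes did. The members thus had no higher share than all genes by this wider search. For 4 members, Rpl13a, Rpl18, Rps2 and Rps10, the coding start was over 1 kb away from the gene start, at 7669, 2700, 1947 and 1353 bp. Around the coding start, Rpl13a had 29 CTCF and 3 IgG tags with 2 peaks in the window, Rpl18 had 10 and 6, Rps2 had 7 and 2, and Rps10 had 5 and 3. For 2 members with such a tract, 20 bases before and 10 bases from the start are shown, with the pyrimidines from the first base on in capitals.
Rpl14 (chr9:120480612-120480641, plus): cacggcagggcgggccctctCTCTTCTCgc
Rps21 (chr2:179992062-179992091, plus): aagcacttaccgaggacccgCCCTCCTgcc

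Ribosomal protein genes were short and lay among other genes. Their median length was 3431 bp with 5 exons, beside 19931 bp and 8 exons over all genes, and a median of 3 other coding gene starts lay within 50 kb, beside 1 over all genes. Over all genes the share with a peak within 5 kb rose with this number, from 20.4% with no other start within 50 kb to 40.4% with 5 or more. The members were therefore also read within broad classes of this number. With none, 3 of 3 members had a peak. With 1 or 2 other starts within 50 kb, 21 of 32 members (65.6%) had a peak within 5 kb and 26.8% of all genes did. With 3 or 4, the shares were 52.6% (10 of 19) and 34.5%, and with 5 or more the share of members was 76.2% (16 of 21). The share of members was above that of all genes in each of these classes, the first of which holds only 3 members. Crowding still varies within a class, and its part in the peak share was not tested. By CpG content, 28 of the 41 members (68.3%) with an observed over expected ratio of at least 0.8 had a peak within 5 kb, where 30.1% of all genes in that class did, and at 0.6 to 0.8 the shares were 60.7% (17 of 28) and 33.8%.

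Annotated snoRNA genes lay on the same strand within the bounds of 28 members, 37.3% (Wilson interval 27.3 to 48.6). There were 56 such entries in all, some of which overlap each other. Whether each lies in an intron was not checked. Over all genes the share was 1.35%. Rpl4 had 5 entries, and Rpl13a and Rpl7a had 4 each. Of these hosts, Rpl13a and Rpl7a had a peak within 1 kb of the start, while Rpl4 (15 CTCF and 5 IgG tags) had none within 5 kb. A divergent gene on the other strand started within 1 kb upstream at 8 members (10.7%) and at 7.87% of all genes.

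Copies of ribosomal protein mRNAs are scattered through the mouse genome as processed pseudogenes, which can make exonic tags ambiguous. Exons were taken here over all annotated transcripts of a gene, so they include sequence that is intron in other transcripts. Rpl9, for example, had 3080 exon and 0 intron bases. The exon values are therefore not those of the spliced mRNA alone. Of all positions in member exons, 79.0% began a 35-base word found once in mm9, with a median over the members of 74.9% and a range from 30.0% at Rpl29 to 99.9% at Rpl3l, and 9 members had under 50%. Introns were at 94.4%, the windows of 1 kb at a median of 92.9%, beside 99.1% for all genes, and the genome at 85.3%. Exons of members had 4.59 CTCF and 2.62 IgG tags per kb and introns had 5.50 and 2.98. Counted per kb of unique positions, exons and introns had 5.81 and 5.83 CTCF tags, and 3.31 and 3.16 IgG tags. The ratio of CTCF to IgG was 1.67 (exact interval 1.46 to 1.91) in exons and 1.76 (1.59 to 1.94) in introns.

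Other genes of protein synthesis and a further housekeeping complex were set beside them. The 76 genes of the mitochondrial ribosome, which are also encoded in the nucleus, had a peak within 5 kb in 43.4% (Wilson interval 32.9 to 54.6) and a pooled ratio of 2.43 (exact interval 2.15 to 2.75), and 19 of their 60 tested genes were called higher. Translation factors had a peak in 10 of 34 genes, 29.4%, and a ratio of 2.58, with 5 of 25 tested genes called higher. Among these Eif2s1 had 52 CTCF and 7 IgG tags and Eif3g had 50 and 9. Of 38 ribosome biogenesis genes 16 had a peak, 42.1%, the ratio was 2.45, and 8 of 28 were called higher, with Bysl at 43 and 4 tags. The 20 other genes with TOP mRNAs had a peak in 6 (30.0%), a ratio of 1.78 and 2 of 13 called higher, of which Eif3f had 42 and 8 tags. This list was not separate from the others. Several of its genes were also counted as translation factors, and Npm1 also under ribosome biogenesis. The 2 called genes, Eif3f and Eef2, were also among the 5 translation factors called. Proteasome subunits, which take no part in translation, had a peak in 16 of 34 (47.1%), a ratio of 3.04 and 9 of 28 called higher. Among them Psmd8 had 33 and 1 tags (ratio 31.4). Psmd14 (10 and 2 tags) had 2 entries with the same window, both counted in the 34 and the 28. None of these lists had a gene called lower. The ribosomal protein genes had the highest peak share of the 6 lists at both distances, but their pooled ratio was within the interval of that of the proteasome genes (2.54 to 3.64).

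**Figure D4:**
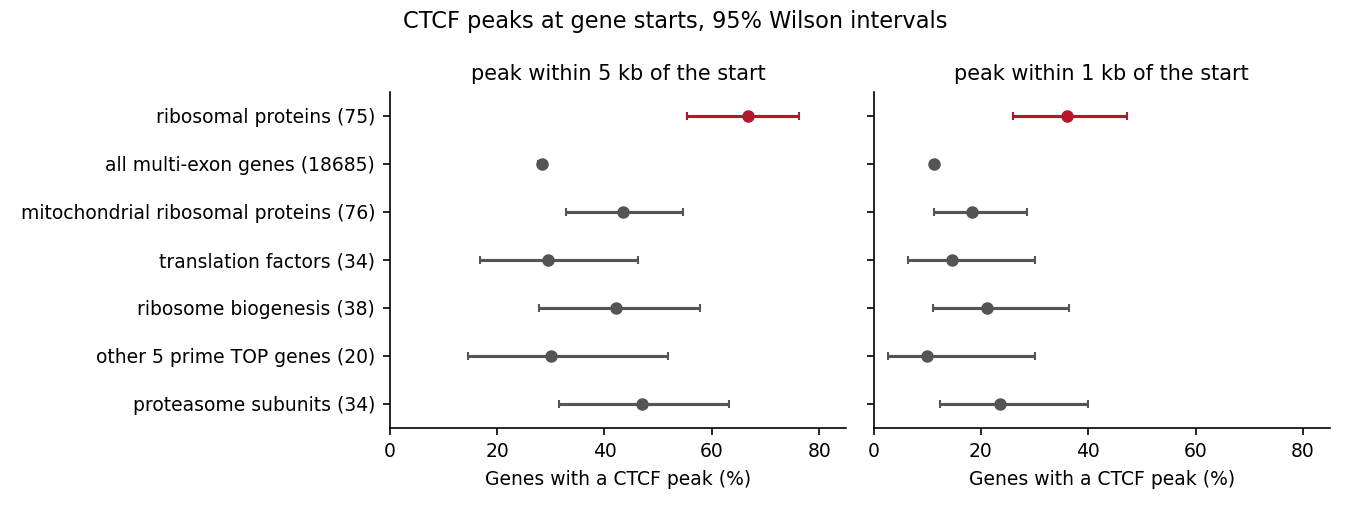
Share of genes in percent with a deposited CTCF peak overlapping 5 kb (left) or 1 kb (right) on either side of the start, with 95% Wilson intervals, for the ribosomal protein genes (red), all multi-exon genes and 5 other lists, with the number of genes in parentheses. The ribosomal protein genes are at 66.7% and 36.0%, to the right of all the others.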

How the data were processed

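CTCF-GFP and IgG ChIP DNA of 1 embryonic stem cell line was sequenced as 1 library each. The authors deposited the aligned tags of both libraries, 1 line per tag with a count of 1 and no normalization, and, for CTCF, peaks called by MACS 1.4 with the IgG tags as control, each with a score, and a summit file whose signal is the pileup height. The aligner is not given in the sources used here, and the build is mm9.

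Each tag was shifted 92 bp downstream (fragment length 184 bp at the 1000 strongest peaks) and counted with Python 3.11.15, numpy 2.4.6, scipy 1.17.1, pysam 0.24.0 and numba 0.67.0. Figures were drawn with matplotlib 3.10.9. Ratios were scaled by the total tags, and genes with at least 10 tags entered two-sided exact binomial tests with Benjamini-Hochberg adjustment over 13009 genes. Peaks were matched to starts by any overlap. The motif matrix was made from 192 CTCF sequences of the supplementary motif sheet, with a pseudocount of 1 and base frequencies of 0.29 (A, T) and 0.21 (C, G). Uniqueness was measured as 35-base words found once in the genome. The scripts were tested on simulated counts.

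The members and gene lists were chosen with earlier results of these data known. Of the listed symbols, 38 of 40 ribosome biogenesis genes were found, and 33 proteasome symbols gave 34 gene entries, because Psmd14 had 2 entries. Genes named in full were those with a peak within 1 kb, the 5 highest and 5 lowest ratios, the 3 highest IgG counts, Rpl19, the stalk proteins, the paralogues and the Diamond-Blackfan anemia genes. Genes outside this rule were named after their values were seen. These were the tunnel exit, snoRNA host, TOP tract and distal peak examples and those of the other lists. A few members, and some sequences, are not reported here by name, while the counts and pooled values include them.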

Additional observations from a re-analysis of the deposited data

How the results depend on the processing

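The 6 results for the ribosomal protein genes were recomputed under 29 alternatives, of which 23 stayed within the interval or within 1.5 times the count. The pooled ratio of CTCF to IgG tags was 3.65 with windows of 500 bp, 2.44 with windows of 2 kb, and 1.59 with only the members that have no peak in the window, where the members with a peak are left out by construction. Any overlap with 1 kb in place of 5 kb left 27 members with a peak. A motif threshold of 1e-04 gave 76% of the member peaks, and 50 bp in place of 150 bp gave 28%. The share of all summits was not computed under either motif setting. For the windows, the cause was not tested. Scaling by the tags outside the peaks gave a ratio of 3.49, and the number of members called by the exact binomial test ranged from 23 to 29. Keeping only peaks scored 100 or more, 34 members (45.3%) had one within 5 kb, where 18.2% of all genes did. No paired analysis was possible because each antibody gave a single library. The depth limits single genes most, since a window with few IgG tags leaves the ratio open over a wide range, and a member not called is not shown to lack CTCF.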
